A study of Schizosaccharomyces pombe with 4 samples.

Results

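Antisense non-coding RNAs of the fission yeast Schizosaccharomyces pombe were compared between cells lacking eIF3e, a subunit of translation initiation factor eIF3, and wild-type cells. Members were the features named SPNCRNA, apart from SPNCRNA.111, that shared at least 1 base with a feature on the opposite strand of the same chromosome whose name does not start with SPNCRNA. They numbered 899 of the 1411 SPNCRNA features and of the 6808 features in all. Another 511 SPNCRNA features had no such gene opposite them. The deletion strain was h- int6::kanMX6 ura4-D18 leu1-32, in which the eIF3e gene int6 is replaced by a drug resistance cassette, and wild type was h- ura4-D18 leu1-32, so that both strains carried the ura4 and leu1 markers. Both were grown in yeast extract with supplements, and 2 libraries per strain were sequenced from total RNA after removal of rRNA. Nothing in the labels says that the libraries of a strain came from separate cultures, so the p-values measure only the spread between these libraries, which may be technical.

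Antisense transcription is widespread in fission yeast. Such RNAs arise from promoters downstream of or inside a gene, or from read-through of a convergent neighbour, and some lower the output of the gene they cross while many have no known effect. The nuclear exosome degrades many of them, histone modification and nucleosome assembly over transcribed genes keep others from starting, and the RNAi machinery can act on double-stranded RNA from overlapping transcripts. Antisense RNAs are well known over meiotic genes, several of which are held down in growing cells.

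The 899 members spread over chromosomes 1 (399), 2 (330) and 3 (170), with 437 on the plus strand and 462 on the minus strand. Their median length was 1310 bases (100 to 5317), and the part lying across from the main partner had a median of 973 bases, or, per member, 82.3% of its length. The main partner, the opposite-strand gene with the most shared bases, was a protein-coding gene for 893 members, and 212 members crossed 2 or 3 genes. The 5′ ends of the pair overlapped for 370 members and the 3′ ends for 198. A further 206 members lay wholly inside their gene and 125 spanned the whole gene. By RefSeq's coding annotation, available for 884 main partners, 684 members crossed coding bases, 507 crossed the start codon, 426 the stop codon and 287 both. Their median GC content was 35.7%, against 32.9% for the 511 other non-coding RNAs.

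The build behind the table's coordinates is not named. Start and end were identical to those of RefSeq assembly ASM294v3 for 855 of the 860 members found there (99.4%), and bases were read from that assembly. The stretches printed next are the starts of coding sequences as they read on the antisense strand, shown for the members with the smallest p that cross their gene's start codon, so that the physical relation of each pair can be seen. Each is written 5′ to 3′ in the direction of the non-coding RNA, and the capitals mark CAT, the reverse complement of the gene's start codon. They are 90 bases long except where the non-coding RNA begins 17 bases into the coding sequence. By RefSeq's ASM294v3, the stretch for SPNCRNA.1626 opposite mbx2 was chr2:3626639-3626728 on the minus strand, for SPNCRNA.1344 opposite SPBC1271.08c it was chr2:356910-356999 on the minus strand, for SPNCRNA.1397 opposite num1 it was chr2:898075-898164 on the minus strand, for SPNCRNA.785 opposite vps1 it was chr1:1999253-1999342 on the plus strand, for SPNCRNA.1382 opposite ubc4 it was chr2:715333-715422 on the minus strand, for SPNCRNA.813 opposite SPAC6C3.03c it was chr1:2326545-2326634 on the plus strand and for SPNCRNA.1239 opposite ssp1 it was chr3:1878714-1878730 on the minus strand.
SPNCRNA.1626: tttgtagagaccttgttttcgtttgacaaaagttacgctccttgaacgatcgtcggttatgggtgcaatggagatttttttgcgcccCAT
SPNCRNA.1344: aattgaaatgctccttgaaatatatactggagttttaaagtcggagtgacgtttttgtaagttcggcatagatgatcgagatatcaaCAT
SPNCRNA.1397: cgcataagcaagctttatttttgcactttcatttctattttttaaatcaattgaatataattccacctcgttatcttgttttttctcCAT
SPNCRNA.785: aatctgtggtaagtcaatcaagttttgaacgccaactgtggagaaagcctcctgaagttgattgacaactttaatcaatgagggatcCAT
SPNCRNA.1382: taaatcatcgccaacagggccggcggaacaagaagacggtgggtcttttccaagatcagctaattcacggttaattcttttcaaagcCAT
SPNCRNA.813: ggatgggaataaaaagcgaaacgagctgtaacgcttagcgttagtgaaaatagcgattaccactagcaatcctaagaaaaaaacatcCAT
SPNCRNA.1239: ttattcactgatccCAT

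Total reads over all features were 28254322 and 16679119 in the deletion libraries and 17485007 and 9926542 in the wild-type libraries, of which rRNA took 55.5% and 66.4% in the deletion and 50.4% and 58.7% in wild type. int6 itself had 1 and 10 reads in the deletion libraries, against 504 and 194 in wild type, and no member lies opposite int6. Antisense members took 3.58% and 3.99% of the non-rRNA reads in the deletion libraries, against 4.81% and 4.66% in wild type. Between 68.4% and 77.7% of those reads belonged to 8 members. The other 891 members took 1.13% and 0.891% in the deletion, against 1.28% and 1.18% in wild type. The shares of the deletion libraries lay below those of the wild-type libraries in both comparisons, though with 2 libraries against 2 an exact two-sided permutation test cannot give a p below 0.333. The median member had 30 and 10 reads in the deletion libraries, against 24 and 7 in wild type, whereas the median protein-coding feature had 269 and 87 in the deletion, against 169 and 60 in wild type. Members without a single read numbered 197 and 156 in deletion replicates 1 and 2, and 63 and 163 in wild-type replicates 1 and 2. The deepest library, deletion replicate 1, thus had the most members at 0 and wild-type replicate 1 the fewest, and the part of this in the results was not tested. All 4 libraries were at 0 for 12 members.

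Antisense RNAs were mostly far scarcer than the genes they crossed. On the scale of the deposited RPKM, reads corrected for transcript length and library size, and averaged over the 4 libraries, the median member stood at 0.620 and the median main partner at 3.13. The median ratio of a member to its own gene was 19.5%, and 236 members (26.3%) exceeded their gene. Members lying wholly inside a gene had the lowest ratio of the 4 layouts, at a median of 11.3%, and those whose 3′ ends overlapped the highest, at 29.5%. Among the nested members, the 52 inside the genes of the highest quartile had a median of 0.207 RPKM beneath genes at 16.6 RPKM, with a median ratio of 1.02%. The 52 inside genes of the lowest quartile had 0.520 RPKM beneath genes at 0.617 RPKM, with a median ratio of 75.2%. The quartiles were cut on the gene's own RPKM, the denominator of the ratio, so the grouping itself sets the ratios apart. Across all 899 pairs the rank correlation of the 2 levels was −0.06, a description of pairs that share libraries. Whether reads were counted by strand is not stated by the labels or headers used here. Were they not, reads of a gene and of its antisense partner could not be told apart. Among the 206 nested members, whose bases all lie across from the gene, the rank correlation of the levels was −0.19.

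**Figure D1:**
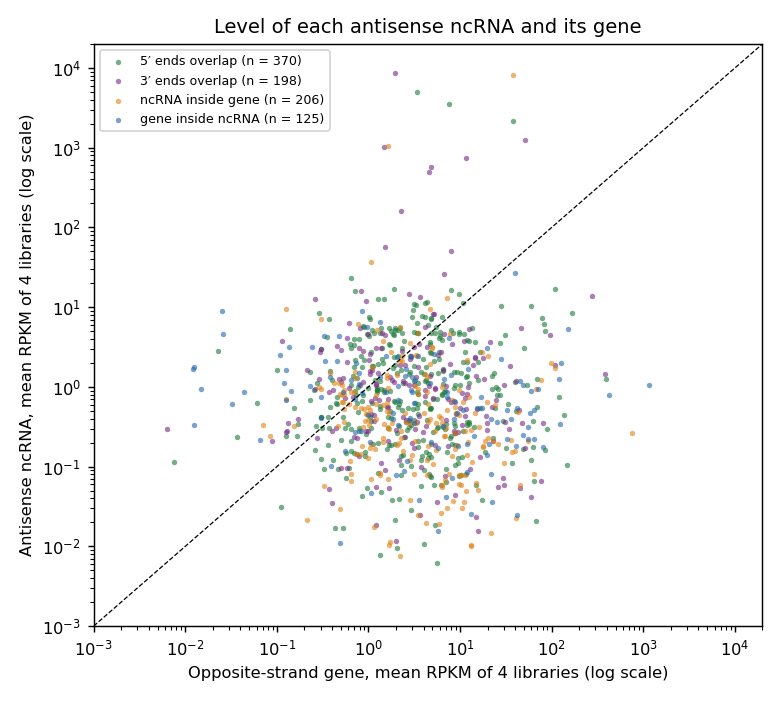
Mean RPKM over the 4 libraries of each antisense non-coding RNA (vertical axis) against its main opposite-strand gene (horizontal axis), both on log scales, coloured by layout; the dashed line marks equal levels and pairs with either at 0 are not drawn. Most points lie below the line, with 236 of 899 members above it, and the highest member, SPNCRNA.1511, stands at 8726 RPKM.

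Of the 899 members, 563 had enough reads to be tested and 336 did not. By edgeR's quasi-likelihood test 0 members were higher and 0 lower in the deletion past an adjusted p of 0.05. The background over all 5915 features tested was 0.0169% higher (1 feature, str3) and 0% lower. Before adjustment, edgeR put 20 members (3.55%, background 4.8%) on the higher side and 63 (11.2%, background 5.31%) on the lower side at p under 0.05. DESeq2 called 2 higher and 15 lower, beside backgrounds of 0.828% and 0.693%, and limma-voom called 0 and 0, beside backgrounds of 0.0169% and 0%. With no filter on low counts edgeR called 1 and 1, beside backgrounds of 0.222% and 0.074%. A fit with a replicate block called 2 higher and 15 lower, where the background was 1.49% and 1.78%. DESeq2 and the blocked fit shared 13 of their 17 calls, or 76.5% of each. Those 13 were SPNCRNA.1626 and SPNCRNA.1344 on the higher side, and SPNCRNA.722, SPNCRNA.743, SPNCRNA.785, SPNCRNA.813, SPNCRNA.1215, SPNCRNA.1239, SPNCRNA.1378, SPNCRNA.1382, SPNCRNA.1397, SPNCRNA.1650 and prl42 on the lower side. Without deletion replicate 2 edgeR called 5 higher and 34 lower, beside backgrounds of 1.13% and 3.11%. The 5 were SPNCRNA.606, SPNCRNA.712, SPNCRNA.1153, SPNCRNA.1344 and SPNCRNA.1626, and the 34 included every lower member of the 13 apart from SPNCRNA.1215. Without deletion replicate 1 it called 1 and 1, SPNCRNA.615 and SPNCRNA.1239, beside 0.304% and 0.0845%. Without wild-type replicate 1 it called 0 and 0, beside 0% and 0%, and without wild-type replicate 2 likewise 0 and 0, beside 0.118% and 0.0676%. In such a fit 1 strain has a lone library, taken to vary as the other strain's libraries do. Some lower calls without deletion replicate 2 were members at 0 reads in deletion replicate 1, such as SPNCRNA.871, SPNCRNA.1079, SPNCRNA.1492 and SPNCRNA.1574. Within that fit such members have reads in wild type alone, so their direction could only be lower.

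As a body the tested members leaned towards lower levels in the deletion. Their median log2 change was −0.19 (quartiles −0.77 and 0.36), against 0.00 over all features tested. Setting the 8 members at 0 in a strain to their bound could not move this median, because each bound lay on the same side of it as the fitted value. Of the 563, 340 (60.4%) were negative against a background of 49.9%. Both deletion libraries lay below both wild-type libraries for 168 members (29.8%, background 21.4%) and above them for 76 (13.5%, background 20.1%). In RNA from a whole culture, a lower level in every cell and fewer cells holding the transcript cannot be told apart. The 263 tested non-coding RNAs with no gene opposite leaned the same way, at a median of −0.23, with 90 (34.2%) lower and 38 (14.4%) higher. Protein-coding features had a median of 0.04, with 19.3% lower and 21.8% higher, and the main partners themselves stood at 0.06.

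Several measurements bear on the size of this lean. The filter on low counts admitted 36 members through the wild-type libraries alone and 3 through the deletion libraries alone. The 364 members above the filter's cutoff of 0.585 CPM (counts scaled to library size, here by TMM) in all 4 libraries had a median of −0.13, with 106 lower (29.1%) and 59 higher (16.2%), where the 5201 features meeting the same condition had a median of 0.01, with 20.9% lower and 21.1% higher. Single libraries were compared as log2 of CPM plus 0.5, which shrinks the differences of scarce members, unlike the fitted changes. So taken, the member median was −0.15 and −0.06 for deletion replicate 1 over wild-type replicates 1 and 2. It was −0.29 and −0.18 for deletion replicate 2 over the same libraries. Within a strain it was −0.04 for deletion replicate 2 over replicate 1, and −0.11 for wild-type replicate 2 over replicate 1. The difference between the wild-type libraries was therefore larger than the smallest strain difference, that of deletion replicate 1 over wild-type replicate 2. Between libraries of like replicate number the medians were −0.15 and −0.18, both larger in size than the −0.11 within wild type. Whether a shared number reflects a real pairing is unknown. In the fit without wild-type replicate 1 the median was −0.053, and without deletion replicate 1 it was −0.35. Without wild-type replicate 1, 231 members were lower and 170 higher, beside backgrounds of 35.3% and 34.6% under that looser condition. Without wild-type replicate 2 they were 255 and 114, beside 34.8% and 33.3%. Without deletion replicate 1 they were 278 and 139, beside 35.8% and 34.7%, and without deletion replicate 2 they were 244 and 182, beside 37.7% and 36.7%.

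**Figure D2:**
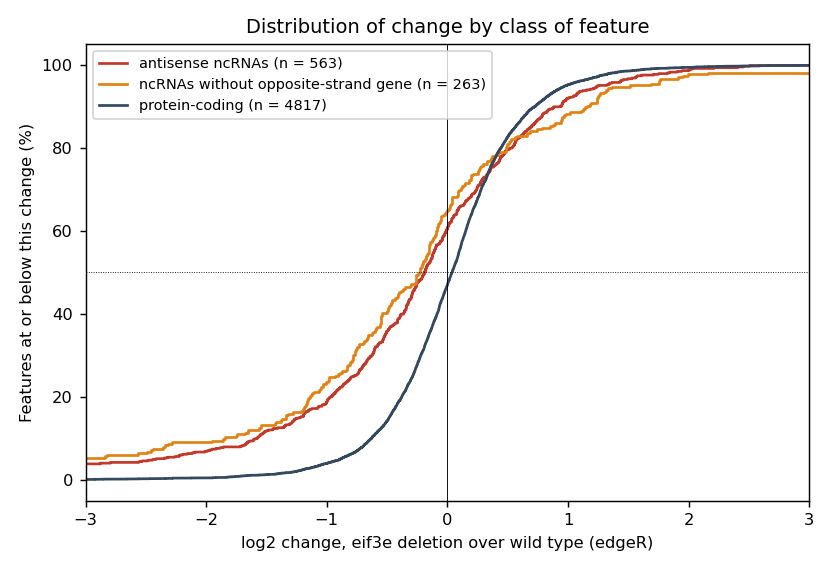
Cumulative share of features (vertical axis, percent) at or below each fitted log2 change, deletion over wild type (horizontal axis), for tested antisense RNAs (n = 563), tested non-coding RNAs without an opposite-strand gene (n = 263) and protein-coding features (n = 4817). The curves of both kinds of non-coding RNA cross 50% left of 0, at −0.19 and −0.23, while the protein-coding curve crosses at 0.04; changes beyond 3 in size, 22 below and 1 above for the antisense RNAs, lie outside the axis.

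By the layout of the pair, the median was −0.23 for members whose 5′ ends overlapped their gene's (240 tested), −0.21 for members inside the gene (88), −0.18 where the 3′ ends overlapped (139) and −0.09 where the member spanned the gene (96). Members that crossed both start and stop codon stood at −0.19, those crossing the start codon alone at −0.18 and those crossing the stop codon alone at −0.22. The 145 tested members that crossed no coding base stood at −0.29. RefSeq annotates 122 members as possible alternative UTRs, and the 86 of them tested had a median of −0.03 against −0.21 for the other 477. The upper group by mean CPM (282 members) had −0.14 and the lower group (281) −0.26, so the less abundant members lay further below 0. None of these differences between subsets was tested.

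Of the members higher in both deletion libraries, SPNCRNA.1626 had the smallest p. It (chromosome 2, positions 3626024 to 3631136, minus strand) runs for 5113 bases, converges with mbx2, which encodes a MADS-box transcription factor, and crosses its coding sequence and the start codon printed above. It had 931 and 299 reads, or 26.5 and 25.2 CPM, in the deletion libraries, against 185 and 55 reads, or 8.002 and 6.48 CPM, in wild type. The strains did not overlap, and the log2 change was 1.83 (SE 0.27) with an edgeR adjusted p of 0.111. mbx2 stood at 1.48 and 2.44 CPM in the deletion, against 2.60 and 1.18 CPM in wild type. These overlapped, with a log2 change of −0.01. On the per-length RPKM scale the antisense RNA stood at 5.86 and 3.30 in the deletion, against 1.90 and 1.01 in wild type. mbx2 stood at 0.276 and 0.270 in the deletion, against 0.517 and 0.155 in wild type. The antisense feature as a whole thus had the higher RPKM in every library. Only 51.5% of its bases lie opposite mbx2, and the levels over the shared bases were not compared.

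SPNCRNA.1344 (chromosome 2, positions 355997 to 357265, minus strand) lies wholly inside SPBC1271.08c, an uncharacterized protein gene, and covers 60.4% of it. It had 24.1 and 15.99 CPM in the deletion, against 4.20 and 6.01 CPM in wild type, with no overlap, a log2 change of 2.00 (SE 0.35) and an edgeR adjusted p of 0.164. The gene across from it had the same direction: SPBC1271.08c had 20.0 and 13.0 CPM in the deletion, against 3.42 and 4.598 CPM in wild type, a log2 change of 2.07 with the same adjusted p of 0.164. The log2 ratio of antisense to gene was 0.27 and 0.28 in the deletion libraries, against 0.26 and 0.35 in wild type, almost the same in all 4. The 2 strands thus stood at nearly 1 ratio throughout, and whether they share reads was not tested.

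Among the other members with the smallest p and higher in both deletion libraries, SPNCRNA.1153 spans SPCC18B5.02c, which RefSeq annotates as a pseudogene. It had 6.21 and 3.70 CPM in the deletion, against 1.08 and 1.41 CPM in wild type, a log2 change of 2.03 and an edgeR adjusted p of 0.272, and SPCC18B5.02c had a log2 change of 1.20 with both deletion libraries higher. SPNCRNA.1358 shares 224 bases with the 5′ end of eca39, the branched-chain amino acid aminotransferase gene, and had 15.9 and 14.1 CPM in the deletion, against 7.61 and 6.13 CPM in wild type. Its log2 change of 1.12 (edgeR adjusted p 0.294) stood beside one of 1.00 for eca39, and both RNAs of this divergent pair were higher in both deletion libraries. SPNCRNA.615, whose 5′ end overlaps that of the NADPH dehydrogenase gene SPAC5H10.10, had 3.25 and 9.93 CPM in the deletion, against 1.47 and 1.77 CPM in wild type, a log2 change of 2.01 beside 1.04 for its gene. Its deletion libraries stood apart, and its change was 1.03 without deletion replicate 2 and 2.63, with an edgeR adjusted p of 0.0489, without deletion replicate 1.

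Other members of this kind faced genes with a negative or a smaller change. SPNCRNA.712 covers 96.6% of cwf19, a gene for a splicing-related protein. It had 4.53 and 3.28 CPM in the deletion, against 0.606 and 1.18 CPM in wild type, a log2 change of 2.21 with an edgeR adjusted p of 0.317, whereas cwf19 was lower in both deletion libraries, with a log2 change of −0.56. SPNCRNA.977, inside the aminotransferase gene SPAC27F1.05c, had a log2 change of 1.57 beside −0.74 for its gene. SPNCRNA.606 overlaps isp3, a gene for a spore protein, with a log2 change of 2.41 beside −0.28. SPNCRNA.1565 (opposite SPBC2A9.02), SPNCRNA.800 (cka1) and SPNCRNA.1475 (tra1) had log2 changes of 1.34, 0.79 and 1.75, beside gene changes of 0.18, 0.17 and 0.47, and of these genes tra1 was higher in both deletion libraries.

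**Figure D3:**
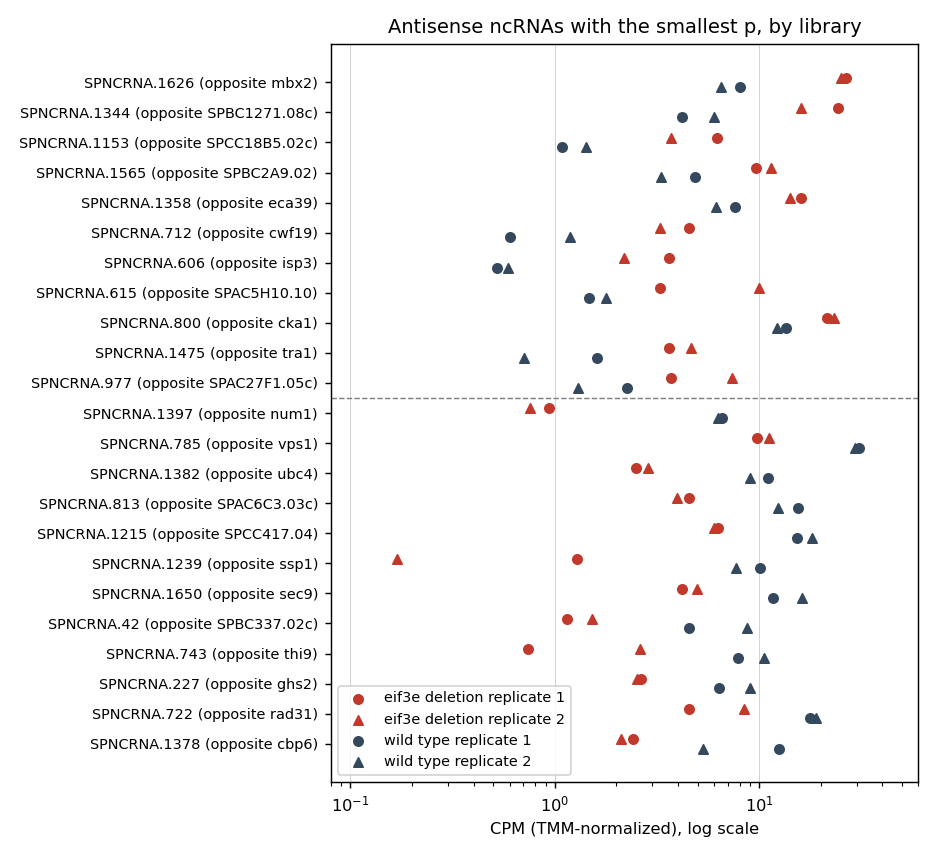
TMM-normalized CPM of 11 members with the smallest p that were higher in both deletion libraries (above the dashed line) and 12 that were lower (below it), on a log axis, 1 symbol per library, deletion in red and wild type in a dark shade. The strains do not overlap for any of the 23, which is how they were chosen, and the lowest point is SPNCRNA.1239 in deletion replicate 2 at 0.168 CPM.

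On the other side, SPNCRNA.1397 (chromosome 2, positions 897892 to 901405, minus strand) spans the whole of num1, the gene of a cortical factor that anchors dynein. It had 33 and 9 reads, or 0.941 and 0.758 CPM, in the deletion libraries, against 151 and 53 reads, or 6.53 and 6.25 CPM, in wild type. The strains were well apart, with a log2 change of −2.88 (SE 0.43) and an edgeR adjusted p of 0.111. num1 itself had 7.67 and 7.58 CPM in the deletion, against 7.48 and 6.48 CPM in wild type, a log2 change of 0.12. On the RPKM scale the antisense RNA had 0.302 and 0.145 in the deletion, against 2.25 and 1.42 in wild type, while num1 had 2.63 and 1.54 in the deletion, against 2.75 and 1.57 in wild type. The antisense RNA was thus close to the level of num1 in wild type and well under it in the deletion.

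SPNCRNA.785 (chromosome 1, positions 1999135 to 2000466, plus strand) starts inside vps1, the gene of a dynamin-family GTPase of membrane traffic, and runs away from it past the start codon. It had 9.69 and 11.1 CPM in the deletion, against 30.8 and 29.2 CPM in wild type, a log2 change of −1.53 (SE 0.25) with an edgeR adjusted p of 0.137. vps1 had 25.03 and 30.2 CPM in the deletion, against 28.1 and 33.7 CPM in wild type, and these overlapped. SPNCRNA.1382 (chromosome 2, positions 714523 to 715767, minus strand) stands in the same divergent layout to ubc4, a ubiquitin-conjugating enzyme gene. It had 2.48 and 2.86 CPM in the deletion, against 11.03 and 8.96 CPM in wild type, a log2 change of −1.92 and an edgeR adjusted p of 0.164, while ubc4 had a log2 change of 0.16.

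SPNCRNA.1239 (chromosome 3, positions 1877676 to 1878730, minus strand) begins 17 bases into the coding sequence of ssp1, the calcium/calmodulin-dependent kinase kinase gene, and leaves it at the 5′ side. It had 45 and 2 reads in the deletion libraries, against 232 and 65 in wild type. The groups did not overlap, and the log2 change was −3.40 (SE 0.68) with an edgeR adjusted p of 0.191, but the deletion libraries themselves stood far apart at 1.28 and 0.168 CPM. The fitted change was −5.66 without deletion replicate 1 and −2.79 without deletion replicate 2. ssp1 had 9.63 and 19.7 CPM in the deletion, against 13.9 and 15.4 CPM in wild type, with a log2 change of −0.01.

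SPNCRNA.743 (chromosome 1, positions 1481083 to 1482570, minus strand) crosses the 5′ end of thi9, the gene of the plasma membrane thiamine transporter, without reaching its coding bases, and the directions of this pair were opposite. The antisense RNA had 0.741 and 2.61 CPM in the deletion, against 7.87 and 10.5 CPM in wild type, a log2 change of −2.56 with an edgeR adjusted p of 0.257. thi9 had 7.04 and 13.6 CPM in the deletion, against 2.68 and 2.95 CPM in wild type, a log2 change of 1.86 with an edgeR adjusted p of 0.245. Neither passed the threshold. On the RPKM scale SPNCRNA.743 had 0.563 and 1.18 in the deletion, against 6.41 and 5.62 in wild type, and thi9 had 2.37 and 2.71 in the deletion, against 0.969 and 0.701 in wild type. By RPKM of the whole features, the gene was the higher in both deletion libraries and the antisense RNA in both wild-type libraries.

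SPNCRNA.813 converges with SPAC6C3.03c, an uncharacterized protein gene, and had 4.50 and 3.96 CPM in the deletion, against 15.5 and 12.4 CPM in wild type, a log2 change of −1.72 with an edgeR adjusted p of 0.164 beside 0.91 for its gene. SPNCRNA.1650 is annotated as a snoRNA primary transcript and overlaps snoR68 on its own strand. It had a log2 change of −1.61 (edgeR adjusted p 0.191) beside 0.39 for sec9, a membrane fusion gene, and −0.88 for snoR68. The others were SPNCRNA.1215 (opposite SPCC417.04), prl42 (SPBC337.02c), SPNCRNA.227 (ghs2), SPNCRNA.722 (rad31) and SPNCRNA.1378 (cbp6), with log2 changes of −1.44, −2.32, −1.55, −1.53 and −1.99. Of these, the 4 with a tested gene had gene changes of −0.15 for SPBC337.02c, −0.64 for ghs2, 0.04 for rad31 and −0.52 for cbp6, and those of ghs2 and cbp6 were lower in both deletion libraries.

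**Figure D4:**
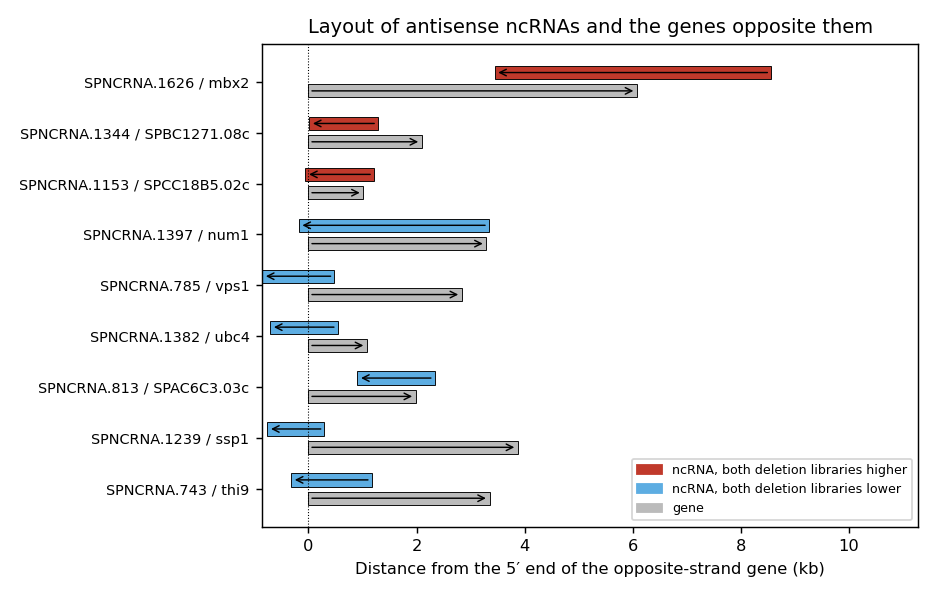
Position of 9 antisense RNAs (upper bar of each pair) and their genes (grey, lower bar), in kilobases from the 5′ end of the gene with the gene drawn left to right; arrows give the direction of transcription, red marks members with both deletion libraries higher and blue those with both lower. SPNCRNA.1397 and SPNCRNA.1153 span their gene, SPNCRNA.1344 lies inside it, SPNCRNA.1626 and SPNCRNA.813 overlap its 3′ end, and the others leave it at the 5′ side.

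Some members were at 0 in both libraries of a strain. These were 8 of the 563 tested members, against 13 of all 5915 features tested. Of the 263 tested non-coding RNAs without an opposite-strand gene 5 were of this kind, and of the protein-coding features 0. Each of the 8 passed the filter on low counts only through the strain in which it had reads, so its direction is listed only. The 8 remain in the counts and the median given for all tested members. DESeq2's lower calls included SPNCRNA.871, SPNCRNA.1079, SPNCRNA.1492 and SPNCRNA.22. SPNCRNA.871, opposite the claudin gene dni1, had 0 and 0 reads in the deletion, against 40 and 13 in wild type, at least 26.3-fold lower when 3 reads over the deletion libraries together are taken as the floor. By the same floor SPNCRNA.1492 (opposite rct1) and prl22 (SPNCRNA.22, opposite SPCC613.02) were at least 18.8-fold lower, and SPNCRNA.1079, nested in the FEN-1 endonuclease gene rad2, at least 15.9-fold lower. SPNCRNA.329 (opposite SPBC530.15c), SPNCRNA.1238 (nested in meu10) and tos1 (SPNCRNA.69, opposite the meiotic recombination gene rec7) were at least 13.4-fold, 12.9-fold and 10.9-fold lower. SPNCRNA.1693, opposite the agmatinase gene SPBC8E4.03, had 26 and 11 reads in the deletion, against 0 and 0 in wild type, at least 8.30-fold higher. These floors cover counting error only. Between the first libraries alone, 98 members were at 0 in deletion replicate 1 with at least 5 reads in wild-type replicate 1, and 19 were the converse. Among protein-coding features those counts were 56 and 9.

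The changes of antisense RNAs and of their genes showed almost no correlation. Over the 522 pairs in which both were tested, the Spearman correlation of the log2 changes was −0.03 and the Pearson correlation −0.04, and 253 pairs (48.5%) had the same sign. Both were negative in 134 pairs and both positive in 119, the antisense RNA was negative and the gene positive in 185, and the converse held in 84. These are descriptions: the values of a pair come from the same libraries, and some genes enter more than 1 pair. The correlation was −0.07 where 3′ ends overlapped (131 pairs), 0.01 where 5′ ends overlapped (231), −0.07 where the member spanned the gene (76) and −0.01 where it lay inside (84). In the 287 pairs with a mean of at least 30 reads on each side it was 0.10, with the same sign in 54.0%. As a yardstick, the replicate 2 minus replicate 1 differences of the same pairs correlated at 0.05 within the deletion and −0.02 within wild type.

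**Figure D5:**
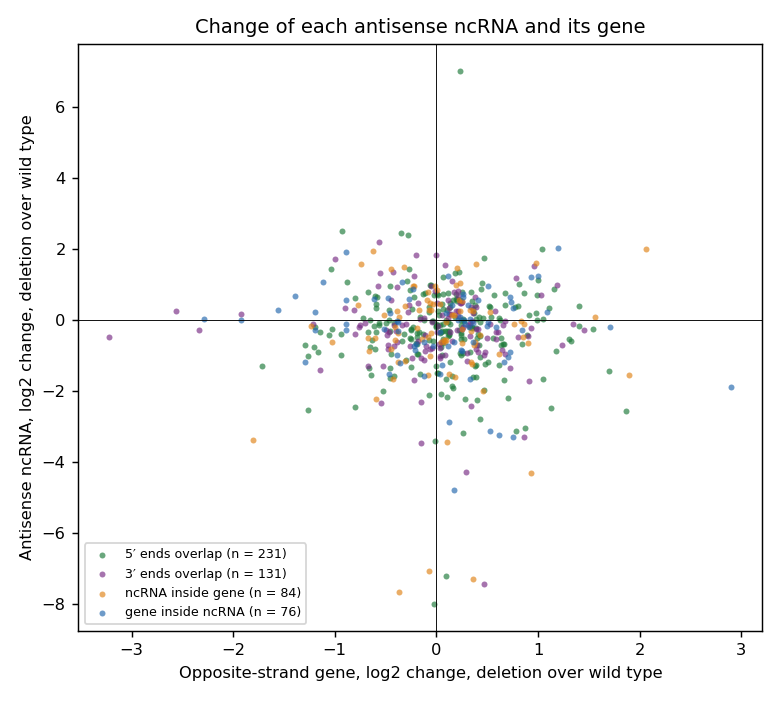
Fitted log2 change, deletion over wild type, of each antisense RNA (vertical axis) against that of its main opposite-strand gene (horizontal axis) for 522 pairs with both tested, coloured by layout. The cloud shows no slope (Spearman −0.03), and the points near 7 and −7 on the vertical axis are members at 0 reads in a strain, whose fitted value is no measure of size.

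Counted by side, of the 72 paired members higher in both deletion libraries, the gene was higher for 21 (29.2%), lower for 17 (23.6%) and overlapping between strains for 34 (47.2%). Of the 158 paired members lower in both, the gene was higher for 38 (24.1%), lower for 27 (17.1%) and overlapping for 93 (58.9%). Of the 292 members whose strains overlapped, the gene was higher for 60 (20.5%) and lower for 52 (17.8%). Over all 970 tested opposite-strand genes 23.2% were higher and 19.5% lower, and over all features tested 20.1% and 21.4%. Differences from these shares were not tested. With genes on the same strand the correlation was likewise near 0, at −0.04 with an overlapping same-strand neighbour (92 members) and 0.04 with one within 500 bases (141). When 2 members faced the same gene, 23 of 36 such pairs of members (63.9%) had the same sign, with a correlation of 0.21. Of all tested members 60.4% were negative, which alone favours equal signs. The 36 pairs are not independent, since rec7 and mre11 each enter more than 1. They include SPNCRNA.514 with SPNCRNA.1490, which may divide reads, and SPNCRNA.329, SPNCRNA.1238 and SPNCRNA.69, at 0 reads in the deletion.

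The pairs named next were chosen because their ratio of antisense to gene did not overlap between the strains. The share of all pairs with such a ratio is not given here. With 2 libraries against 2, an exact two-sided permutation test of such a separation cannot give a p below 0.333. With an average of at least 30 reads on both sides, the ratio was higher in both deletion libraries for SPNCRNA.712 over cwf19 by 2.78 (log2 change of the member minus that of the gene), for SPNCRNA.619 over fzr2, a meiotic activator of the anaphase-promoting complex, by 2.74 and for SPNCRNA.1017 over erf1, annotated as the class I translation release factor gene, by 2.56. In the fzr2 pair the gene had a log2 change of −3.22 with 0.342 and 0.673 CPM in the deletion, against 3.59 and 5.42 CPM in wild type. fzr2 passed the filter on low counts, applied before TMM scaling, through the wild-type libraries alone. SPNCRNA.619 had 3.51 and 3.79 CPM in the deletion, against 7.66 and 2.12 CPM in wild type. In the erf1 pair the antisense RNA had 2.62 and 1.18 CPM in the deletion, against 0.346 and 0.707 CPM in wild type, a log2 change of 1.94 beside −0.62 for erf1. Further pairs of this kind were SPNCRNA.1298 and SPCC569.02c (2.71), SPNCRNA.865 and SPAPB24D3.07c (2.30), and SPNCRNA.857 and SPACUNK4.17 (2.09). So were SPNCRNA.1252 and ams2, a GATA-type transcription factor gene (1.96), and SPNCRNA.979 and SPAC23D3.05c, annotated as a pseudogene (1.83). The changes of some of these members hung on 1 library: without wild-type replicate 1 SPNCRNA.619 stood at 0.78, against −0.47 with all libraries, and SPNCRNA.865 at −0.13, against 0.02. Without deletion replicate 1 SPNCRNA.865 stood at −0.27, and without wild-type replicate 2 SPNCRNA.857 at −0.39, against 0.17.

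Ratios lower in both deletion libraries were led by SPNCRNA.743 over thi9 (−4.42), SPNCRNA.1239 over ssp1 (−3.39) and SPNCRNA.1397 over num1 (−2.998). SPNCRNA.1231, at the 5′ end of SPCC285.04, followed at −2.90, with 0.855 and 3.79 CPM in the deletion, against 10.4 and 9.31 CPM in wild type. Its own log2 change of −2.19 was −2.45 with the replicate block (edgeR adjusted p 0.0422), −3.52 without deletion replicate 2 (edgeR adjusted p 0.000317) and −1.38 without deletion replicate 1. SPNCRNA.1247 (SPCC18.03) stood at −2.66, SPNCRNA.525 (SPAP8A3.07c) at −2.44, prl42 (SPBC337.02c) at −2.17 and SPNCRNA.1382 (ubc4) at −2.08. In 7 of these 8 pairs the gene's own change lay between −0.15 and 0.71, and thi9 was the exception. The pairs were picked for their difference, which is a description and carries no test.

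The pairs can also be ranked by the change of the gene, among those in which neither RNA overlapped between the strains. SPCC70.08c, a methyltransferase gene spanned by SPNCRNA.1292, had 61.7 and 153 CPM in the deletion, against 9.73 and 19.2 CPM in wild type, a log2 change of 2.90 with an edgeR adjusted p of 0.164. SPNCRNA.1292 itself had 6 and 5 reads in the deletion, against 28 and 7 in wild type, a log2 change of −1.88. The arylsulfatase gene SPBPB10D8.02c had 6.41 and 6.14 CPM in the deletion, against 23.5 and 20.4 CPM in wild type, a log2 change of −1.81 with an edgeR adjusted p of 0.111, and SPNCRNA.1307 inside it was lower with it, at 2 and 3 reads in the deletion, against 28 and 14 in wild type. The alpha-amylase gene meu7, at 0 and 0.505 CPM in the deletion, against 1.04 and 1.06 CPM in wild type, had a log2 change of −2.34 beside −0.27 for SPNCRNA.1685, and the alpha-amylase gene aah2 one of 1.54 beside −0.27 for SPNCRNA.982. pfl8, a cell surface glycoprotein gene, had a log2 change of −1.72 beside −1.28 for SPNCRNA.607. The pseudogene SPAC23D3.05c, spanned by SPNCRNA.979, had −1.56 beside 0.27. SPNCRNA.1292, SPNCRNA.1307 and meu7 passed the filter on low counts through the wild-type libraries alone, so their lower directions are listed only.

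Of the 8 members with the highest RPKM, 4 were lower in both deletion libraries, where 29.8% of the tested members and 21.4% of all features tested were, and the strains overlapped for the other 4. SPNCRNA.1511, the highest, shares 163 bases with the 3′ end of the aminopeptidase gene ape2 and had 5913 and 8058 RPKM in the deletion, against 10832 and 10099 RPKM in wild type. The deposited RPKM were lower in both deletion libraries, but after TMM scaling the CPM of the strains overlapped, with a log2 change of −0.33. rrk1 (SPNCRNA.128), the RNA subunit of RNase P, overlaps the 5′ end of the proteasome gene pre10 and had a log2 change of −0.18 with overlapping strains. SPNCRNA.514 lies within SPNCRNA.1490 on the same strand, both opposite rrb1, the gene of a WD repeat protein, so reads may be divided between them. SPNCRNA.514 was lower in both deletion libraries, with a log2 change of −0.61, and SPNCRNA.1490 had −0.25 with overlapping strains. rrb1 had 56.4 and 62.8 CPM in the deletion, against 136 and 106 CPM in wild type, a log2 change of −1.03 with an edgeR adjusted p of 0.287. SPNCRNA.1032, annotated as possibly a small RNA, was lower in both deletion libraries at −0.41, as were SPNCRNA.1651 (opposite sdh8) at −0.85 and SPNCRNA.906 at −1.12. SPNCRNA.906 faces pdi4 and overlaps the snoRNA gene snR30 on its own strand. Its change was −1.32 with the replicate block (edgeR adjusted p 0.0464), −2.12 without deletion replicate 2 (edgeR adjusted p 0.0180) and −0.54 without deletion replicate 1. The candidate snoRNA SPNCRNA.498, nested in the sugar nucleotide transporter gene yea4, had 0.54 with overlapping strains. Without deletion replicate 1 SPNCRNA.1511, rrk1, SPNCRNA.1490 and SPNCRNA.498 stood at 0.15, 0.25, 0.11 and −0.044, each with the sign turned. Without wild-type replicate 2 rrk1 stood at 0.26. Between libraries of the same replicate number, however, the first 3 were lower in the deletion both times. SPNCRNA.1511 had 1905 and 4369 CPM in the deletion, against 3255 and 4609 in wild type. rrk1 had 2126 and 4446 CPM, against 2728 and 4740, and SPNCRNA.1490 436 and 791, against 651 and 811. SPNCRNA.498 had 165 and 82.9 CPM, against 87.6 and 83.2. What the number marks is not stated.

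Grouped by the genes they face, antisense RNAs of meiosis and sporulation genes were the largest set. Of 50 such members 36 were tested, 0 passed the edgeR threshold, 14 were lower in both deletion libraries and 3 higher, and their median log2 change was −0.14, beside −0.19 for all members. Over all 563 tested members, 36 passed the filter on low counts through the wild-type libraries alone and 3 through the deletion libraries alone. Members of this kind were not taken out of the counts of any partner group. The share lower was 29.8% and the share higher 13.5% over all tested members, and 21.4% and 20.1% over all features tested, which are the shares to set the counts of each partner group against. The 3 that were higher were SPNCRNA.606 opposite isp3, meu16 (SPNCRNA.928) opposite mde6 and SPNCRNA.1630 opposite mug30, with log2 changes of 2.41, 1.84 and 0.20. Lower members included SPNCRNA.1476 opposite mcp4 (−1.04), SPNCRNA.1417 opposite meu18 (−1.15), SPNCRNA.885 opposite mug74 (−1.57) and SPNCRNA.1453 opposite mug124 (−2.01), and the genes across from these had 0.71, 0.30, −0.13 and 0.46; these 7 were picked for their side. SPNCRNA.1474, which overlaps the 5′ end of the sporulation gene spo14, had 20.2 and 7.15 CPM in the deletion, against 9.26 and 6.84 CPM in wild type, and the strains overlapped. Its log2 change of 0.77 was −0.18 without deletion replicate 1. SPNCRNA.1473 on the same gene had 0 and 0 reads in the deletion, against 7 and 2 in wild type, and was not tested. SPNCRNA.833 opposite mug105 had a log2 change of −1.21, and SPNCRNA.715 in mug64 had 0 and 2 reads in the deletion, against 0 and 0 in wild type.

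Other groups were small. Of 11 members opposite ribosomal protein genes 4 were tested, 0 passed the threshold and all 4 were negative, with a median of −0.68. SPNCRNA.1464, at the 3′ end of rps1402, had 9.44 and 9.51 CPM in the deletion, against 14.3 and 17.4 CPM in wild type, a log2 change of −0.74 (edgeR adjusted p 0.436). SPNCRNA.1103, which spans rpl902, had −0.26, and SPNCRNA.1261 at rps20 and SPNCRNA.741 at rpl2001 had too few reads to be tested. Translation factor genes had 3 members: SPNCRNA.957 at the elongation factor gene tef102 was tested, with overlapping strains, and SPNCRNA.892 at the eIF2 alpha gene tif211 had 28 and 6 reads in the deletion, against 9 and 2 in wild type. prl13 at tif224 had 0 and 0 reads in the deletion, against 2 and 2 in wild type.

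Amino acid synthesis genes had 10 members, of which 7 were tested, with 0 past the threshold, 2 higher, 2 lower and a median of −0.17. SPNCRNA.1358 at eca39, described above, was among them. SPNCRNA.1597 spans lys9, the saccharopine dehydrogenase gene, and had 92.1 and 101 CPM in the deletion, against 75.05 and 76.0 CPM in wild type, a log2 change of 0.35 beside 0.75 for lys9. It is annotated as a possible alternative UTR and overlaps plt1 on its own strand. SPNCRNA.1574 across met3 had 0 and 3 reads in the deletion, against 25 and 6 in wild type, beside a log2 change of 0.61 for met3. SPNCRNA.1574 passed the filter on low counts through the wild-type libraries alone. SPNCRNA.1500 across his5 had 12 and 0 reads in the deletion, against 8 and 2 in wild type. Of 8 members opposite uptake genes 2 were tested. SPNCRNA.1313, at the 3′ end of the ABC transporter gene abc3, had 45 and 14 reads in the deletion, against 5 and 6 in wild type, a log2 change of 1.53 beside 0.97 for abc3, while SPNCRNA.1312, nested in the same gene, had 0 and 9 reads in the deletion, against 20 and 2 in wild type. SPNCRNA.100 inside pcl1 and SPNCRNA.923 at ctr5 were not tested. No member lies opposite str3, the siderophore-iron transporter gene.

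Stress genes had 6 members, of which 4 were tested, with 0 past the threshold, 1 lower and a median of −0.37. The lower one was SPNCRNA.1678 at the thioredoxin reductase gene trr1, with a log2 change of −0.93, and SPNCRNA.1327 at the trehalase gene ntp1 had −0.24 beside −0.25 for ntp1. SPNCRNA.1585 inside caf5 and SPNCRNA.811 at the heat shock gene ssa1 had too few reads to be tested.

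Genes that act on antisense RNA were read from the same fit. Of 14 nuclear exosome genes, 0 passed the edgeR threshold, 6 were lower in both deletion libraries and 0 higher, with a median of −0.24 beside 0.00 for all features. Over all features tested 21.4% were lower in both deletion libraries and 20.1% higher, and the counts of the groups that follow stand beside the same shares. The core subunit gene rrp4 had 5.67 and 8.25 CPM in the deletion, against 18.8 and 15.8 CPM in wild type, a log2 change of −1.33 with an edgeR adjusted p of 0.257, and rrp40 a log2 change of −0.97. The exonuclease gene rrp6 had 112 and 141 CPM in the deletion, against 119 and 148 CPM in wild type, and these overlapped. Of 8 genes of 3′ end formation and termination 3 were lower and 1 higher, with a median of −0.32, seb1 at −0.56 and dhp1, the nuclear exonuclease gene, at 0.59. The Mmi1 and Red1 group, which removes meiotic transcripts, had a median of 0.00 over 10 genes, with 2 higher and 1 lower. The 15 RNAi and heterochromatin genes had a median of 0.03, with 0 higher and 2 lower, among them dcr1, the Dicer gene, at −0.87. The 19 tested genes of chromatin over transcribed regions had 0.00, with 1 higher, the histone chaperone gene hip3 at 1.03, and 2 lower. The 9 tested genes of cytoplasmic and nonsense-mediated decay had −0.07, with 1 higher and 1 lower, the lower one being exo2, the 5′ exonuclease gene, at −1.08. No gene of these groups passed the threshold.

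Members at the edge of the rule are given for completeness. SPNCRNA.881 shares 1 base with cps1 and had 94 and 29 reads in the deletion, against 57 and 21 in wild type, a log2 change of 0.06. SPNCRNA.1598 shares 3 bases with ptr2 (−0.14) and SPNCRNA.943 8 bases with hpm1 (0.01). Just outside, SPNCRNA.58 abuts SPAC20G8.02 (−0.14), SPNCRNA.1469 ends 3 bases from rga4 (−0.54) and SPNCRNA.1369 4 bases from swd3 (1.99). A further limit concerns same-strand neighbours: 143 members (15.9%) overlap another gene on their own strand and 26 lie within another member. Estimated counts that differed from a whole number by more than 1e-06 were present in 42.0% of those 143 and in 9.52% of the other members.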

How the data were processed

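Per the labels' protocols, total RNA of the eif3e deletion (2 libraries) and of wild type (2 libraries) was freed of rRNA, broken with RNase III and read on a SOLiD sequencer. Among the tools listed without roles in the submitters' processing notes are Bowtie (1.1.0), TopHat (1.4.1), SAMtools, and Partek (6.0). No genome build or strand setting of the counting is stated in the labels or headers used here. The authors deposited, per the file headers, estimated counts of reads per feature, not normalized, and RPKM values scaled by transcript length and library reads. The authors' table also holds each transcript's length in bases. Every column used belongs to a labelled library. Library totals and the reads behind a member are given with the results and set the precision.

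Estimated counts were rounded to whole numbers and compared with edgeR 4.0.16 (R 4.3.3), using TMM normalization, filterByExpr with a minimum count of 10, and a two-sided quasi-likelihood test of strain, fitted on all features with Benjamini-Hochberg adjustment and a threshold of 0.05. Members and their partners were read from that fit. DESeq2 1.42.0, limma 3.58.1, other scaling and filtering, a replicate block and fits without each library were alternatives. A feature was called higher or lower in both deletion libraries when the TMM-normalized CPM of the strains did not overlap. Differences between single libraries and the ratios of antisense to gene in each library were taken on log2 of CPM plus 0.5. An interval was taken from the table's start to its stop minus 1. Names and bases came from RefSeq's ASM294v3, where 860 of 899 members were found. Pandas 2.3.3, scipy 1.17.1 and matplotlib 3.10.9 under Python 3.11.15 served for tables and plots.

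The members and gene lists were chosen with earlier results of these data known. Named members are the 12 with the smallest p in each direction among those whose strains did not overlap and whose mean CPM lay in the upper 75%, the 8 with the highest RPKM, up to 8 pairs in each direction by the difference between member and gene with a mean of at least 30 reads each, up to 8 pairs by the change of the gene among those in which neither RNA overlapped between the strains, and up to 4 members per partner list with the most abundant genes. Other members named were chosen after their values were seen: those at 0 in a strain, those at the edge of the rule, the meiosis members listed by side, and single genes of RNA decay and chromatin. Of the members the rule names, 1 is not reported here.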

Additional observations from a re-analysis of the deposited data

How the results depend on the processing

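The count of members past the threshold, 0 higher and 0 lower with edgeR, was the same with RLE size factors, without rRNA features and with limma-voom. It was 2 and 15 with DESeq2 and 1 and 1 with no filter on low counts, beside 0.222% and 0.074% of all features. Over the fits without a replicate it ran from 0 to 5 higher and from 0 to 34 lower, and over all features from 0% to 1.13% higher and from 0% to 3.11% lower. The cause was not tested, beyond that such a fit takes its spread from the strain with 2 libraries. The labels share replicate numbers between strains without saying what they mark. With the replicate block edgeR called 2 higher and 15 lower, the median log2 change was −0.23, the Spearman correlation −0.033 and the share of pairs with the same sign 47.9%. The replicate 2 minus replicate 1 differences of the strains correlated at 0.29 over all features and 0.10 over members.

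The median log2 change was −0.29 with no filter and ran from −0.35 to −0.053 without a replicate. The Spearman correlation of change was 0.013 over all pairs in place of main partners and ran from −0.065 to 0.013 without a replicate. The share of pairs with the same sign ran from 46.7% to 52.9%. As alternatives chosen after seeing the data, the counts of members above or below were repeated without each library (114 to 182 higher and 231 to 278 lower of 563, over all features 33.3% to 36.7% higher and 34.8% to 37.7% lower) and with members above the cutoff in all 4 libraries (59 higher and 106 lower of 364, over all features 21.1% and 20.9%).

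Single changes that turned sign without a replicate ran from −1.04 to 0.15 for SPNCRNA.1511, from −0.81 to 0.26 for rrk1, from −0.74 to 0.11 for SPNCRNA.1490, from −0.044 to 0.95 for SPNCRNA.498, from −1.07 to 0.78 for SPNCRNA.619, from −0.27 to 0.25 for SPNCRNA.865, from −0.39 to 1.30 for SPNCRNA.857, from −0.18 to 1.32 for SPNCRNA.1474 and from −0.037 to 6.36 for SPNCRNA.957, whose only wild-type reads came from replicate 1. rrk1 stood at 0.25 without deletion replicate 1, and SPNCRNA.865 at −0.13 without wild-type replicate 1. For SPNCRNA.1511, rrk1 and SPNCRNA.1490 the deletion was lower in CPM in both comparisons of like replicate number. The filter on low counts was not passed by 336 of 899 members.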
